A study of Mus musculus with 24 samples.

Results

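The genes described here are 10 surface molecules of myeloid cells, among 55401 gene IDs in the deposited count table. They are the Fc receptor genes Fcer1g, Fcgr1, Fcgr3, Fcgr4 and Fcgr2b, the endotoxin co-receptor gene Cd14, the integrin genes Itgam and Itgb2, the leukocyte phosphatase gene Ptprc and the G protein-coupled receptor gene Gpr84. They were chosen by symbol with earlier results of these data known, and each matched 1 Ensembl ID in the table. Gpr84 was picked because it was lower after nerve injury with the control vector, so its value in that comparison is given as a description with no test. All 10 genes passed the filter on low counts.

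Fc receptors bind the constant part of antibodies and let myeloid cells take up antibody-coated particles. The activating receptors signal through the ITAM motif, a tyrosine motif carried by the common gamma chain, which recruits the kinase Syk. The inhibitory receptor carries an ITIM motif instead and recruits phosphatases that dampen this signal. In the healthy brain these genes are expressed mainly by microglia, the resident macrophages, and by macrophages at the brain borders, and blood leukocytes express many of them too.

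RNA was sequenced in bulk from the nucleus accumbens, a ventral striatal region rich in medium spiny neurons, punched from both hemispheres. Each of 4 groups held 6 libraries. The SNI Mef2c group had spared nerve injury (SNI), a tibial lesion of the left sciatic nerve used to model neuropathic pain, and an accumbens injection of AAV8-hSyn-Mef2c-Egfp. The SNI Gfp group had the injury and AAV8-hSyn-Egfp. The Sham Mef2c group had the operation with the nerve left untouched and the Mef2c vector, and the Sham Gfp group had the sham operation and the Egfp vector. All groups therefore carried an adeno-associated virus and its Egfp, and no group without an injection is analysed here. The hSyn promoter is active in neurons, whereas the genes described are those of leukocytes and microglia. The mice were C57BL/6J or DBA/2J, 8 to 9 weeks old, and the labels do not say which strain or which mice gave which library. P-values therefore measure spread among libraries, which may be technical. Index numbers in the labels follow the groups, and a preparation order that went by them cannot be told apart from surgery and vector.

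The promoters of Fcgr4 and Fcgr1 are shown because these activating receptors had the largest differences of the Fc receptors and because these windows held the searched motifs. Each window runs from 250 bases before to 50 bases after the start of transcription, as RefSeq gives it on GRCm38.p6. In the Fcgr4 window (chr1:171018676-171018975, plus strand) the capitals mark an interferon-stimulated response element core, made of GAAA, any 2 bases and GAAA, and a PU.1 core, GAGGAAGT, which reads ACTTCCTC on the printed strand. In the Fcgr1 window (chr3:96293920-96294219, minus strand) the capitals mark a gamma-activated site core, TTCNNNGAA.
Fcgr4: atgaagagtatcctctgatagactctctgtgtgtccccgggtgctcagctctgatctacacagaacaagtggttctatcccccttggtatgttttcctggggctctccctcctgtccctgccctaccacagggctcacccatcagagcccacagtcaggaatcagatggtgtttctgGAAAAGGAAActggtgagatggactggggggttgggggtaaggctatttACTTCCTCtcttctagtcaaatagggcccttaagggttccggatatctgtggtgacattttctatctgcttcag
Fcgr1: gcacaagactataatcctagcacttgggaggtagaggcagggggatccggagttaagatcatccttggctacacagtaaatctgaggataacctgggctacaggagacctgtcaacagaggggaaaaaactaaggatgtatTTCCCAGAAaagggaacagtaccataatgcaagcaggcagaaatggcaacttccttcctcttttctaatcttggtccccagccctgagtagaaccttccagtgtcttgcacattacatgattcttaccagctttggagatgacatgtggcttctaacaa
Both strands were searched for these 3 motifs in 10 windows of 8 of the genes. The Fcgr4 matches began at positions -73 and -24 and the Fcgr1 match at position -109 from the start, and the other 8 windows held none of the 3 motifs. Of 32851 promoter windows of the same length, 3.443% held the first motif, 3.202% the PU.1 core and 8.298% the gamma-activated site core. A match is a description of the letters.

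The genes lie on 6 chromosomes in the mm10 build (GENCODE M21 annotation). Fcgr2b (chromosome 1, 170958617 to 170976547, minus strand), Fcgr4 (chromosome 1, 171018920 to 171029761, plus strand) and Fcgr3 (chromosome 1, 171051174 to 171064935, minus strand) lie close together. Fcer1g lies nearby (chromosome 1, 171229572 to 171234365, minus strand), and Ptprc lies farther off on the same chromosome (138062861 to 138175708, minus strand). Fcgr1 is on chromosome 3 (96282909 to 96293969, minus strand), Itgam on chromosome 7 (128062640 to 128118491, plus strand) and Itgb2 on chromosome 10 (77530252 to 77565708, plus strand). Gpr84 is on chromosome 15 (103308235 to 103310612, minus strand) and Cd14 on chromosome 18 (36725067 to 36726798, minus strand). Itgam is uncertain because its span overlaps Gm49368, which had 15573 counts over all libraries against 15405 for Itgam. Fcgr2b, Fcgr3 and Fcgr4 are related in sequence, so reads they share could be split between them. Gpr84 overlaps the antisense gene Gm49482, which had 663 counts against 1161 for Gpr84, and Fcgr2b overlaps the antisense gene Gm38204, with 294 counts against 7995. The labels do not say whether strand was used in counting, so these reads cannot be told apart.

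Total counts lay between 25477019 and 36570108 per library. Levels are CPM, counts scaled to the library total, with TMM factors that adjust for library composition. Mef2c, which the vector carries, averaged 611 ± 146 CPM in SNI Mef2c against 168 ± 39.2 CPM in SNI Gfp (SD, n = 6 each), a log2 difference of 1.86 (edgeR quasi-likelihood test, adjusted p = 0.00627). It averaged 243 ± 128 CPM in the libraries labelled Sham Mef2c against 169 ± 25.9 CPM in Sham Gfp (SD, n = 6 each) and did not pass (log2 difference 0.52, edgeR adjusted p = 0.229). Libraries 2 and 5 of those labelled Sham Mef2c had 125 and 123 CPM, below the lowest Sham Gfp library at 139 CPM, so directions drawn from this group are those of libraries with this label. The medium spiny neuron markers summed to between 1876 and 5727 CPM over all libraries, and none of the 9 was at 0 in any group.

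Libraries 4 and 6 of SNI Gfp stood apart from the other 4 of that group. These 2 were singled out from the levels of these same genes, so the patterns are descriptions. In each of the 9 genes other than Gpr84, both lay above every library of the Mef2c vector. Both also reached at least the lowest Sham Gfp library in these 9. The other 4 libraries lay below the lowest Sham Gfp library in each of these genes but Cd14. Gpr84 is left out because it was picked for lower levels in SNI Gfp. The share of all genes tested with these patterns was not counted. Natural killer cell markers summed to 7.10 and 12.0 CPM in these 2 libraries and to between 0.309 and 0.747 CPM in the other 4. B cell markers summed to 27.1 and 200.1 CPM in libraries 4 and 6, and to between 9.49 and 10.999 CPM in the other 4. The largest part of the B cell sum was Ighm, averaging 40.8 ± 74.0 CPM in SNI Gfp (SD, n = 6). Cortical neuron markers summed to 896 CPM in library 4 and to 191 CPM in library 6. The part of these differences in the results was not tested.

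**Figure D1:**
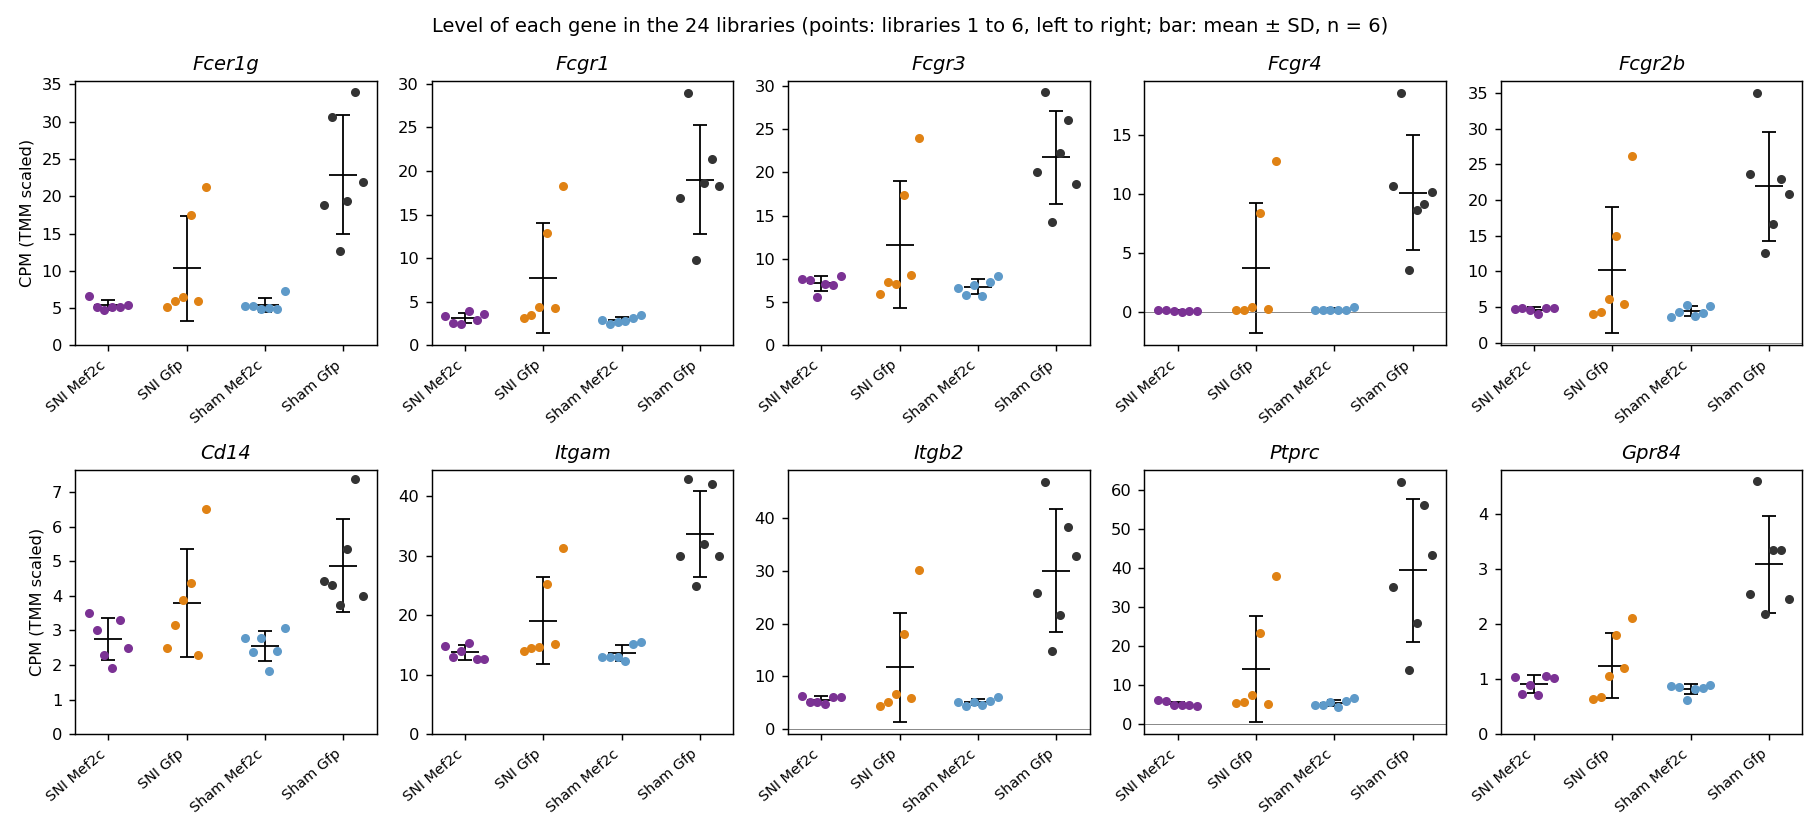
Level of each of the 10 genes in every library, in CPM, 1 panel per gene, with the 4 groups along the x axis and 1 point per library. In each panel other than Gpr84, all 6 Sham Gfp libraries lay above all 6 libraries labelled Sham Mef2c, as in 5.21% of genes tested. Gpr84 was picked with the same Sham Gfp libraries. In SNI Gfp 2 libraries lay apart from the other 4.

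The first comparison set the libraries labelled Sham Mef2c against Sham Gfp, that is the Mef2c vector against the Egfp vector without nerve injury. Of the 9 genes other than Gpr84, 9 were lower in the libraries labelled Sham Mef2c and passed an adjusted p of 0.05 in edgeR, where 7.93% of the 23738 genes tested were called lower. In 9 of 9 the groups did not overlap, against 5.21% of genes tested with that direction. The 9 log2 differences ran between -5.56 and -0.94 with a median of -2.31, against 0.02 over all genes tested. Gpr84 was picked with the same Sham Gfp libraries, so it is not among these counts. The other 9 were also chosen with earlier results of these data known, so the counts describe a chosen set. In bulk tissue, fewer cells of a type and less RNA per cell cannot be told apart.

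Fcer1g, the common gamma chain that the activating receptors need at the cell surface, had a lowest, median and highest level of 4.85, 5.15 and 7.24 CPM in Sham Mef2c and of 12.7, 20.6 and 33.9 CPM in Sham Gfp. The groups did not overlap, and the highest Mef2c library was below the lowest Gfp library. Fcer1g fell by 2.08 on the log2 scale (SE 0.31, edgeR adjusted p = 0.000163), a 4.22-fold lower level.

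Fcgr1, the high-affinity receptor for IgG, had 2.42, 2.83 and 3.53 CPM as its lowest, median and highest level in Sham Mef2c and 9.76, 18.5 and 28.9 CPM in Sham Gfp. Its log2 difference was -2.70 (SE 0.37, edgeR adjusted p = 0.000161). Every Sham Gfp library exceeded every library labelled Sham Mef2c, and the spread in CPM was wider in Sham Gfp. Fcgr3, a low-affinity activating receptor, had 5.76, 6.82 and 7.96 CPM in Sham Mef2c against 14.3, 21.1 and 29.3 CPM in Sham Gfp (lowest, median and highest). It fell by 1.69 on the log2 scale (SE 0.27, edgeR adjusted p = 0.000193), the smallest change among the 3 activating receptors.

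Fcgr4, an activating receptor for a subset of mouse IgG classes, was close to the detection limit with the Mef2c vector. It had 39 counts in all 6 libraries labelled Sham Mef2c together and 1945 counts in the Sham Gfp libraries. The levels were 0.149, 0.163 and 0.432 CPM in Sham Mef2c against 3.54, 9.65 and 18.5 CPM in Sham Gfp (lowest, median and highest). The log2 difference of -5.56 (SE 0.97, edgeR adjusted p = 0.000386) was the largest of the 10, with the largest SE. Its promoter is the first of the printed windows.

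Fcgr2b, the inhibitory receptor with an ITIM motif, had 3.66, 4.27 and 5.35 CPM in Sham Mef2c against 12.5, 21.9 and 34.96 CPM in Sham Gfp (lowest, median and highest). The groups did not overlap, and the receptor that opposes the activating ones was also lower in the libraries labelled Sham Mef2c. Fcgr2b fell by 2.31 on the log2 scale (SE 0.37, edgeR adjusted p = 0.000190).

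Cd14, which hands endotoxin to the receptor Tlr4, had 1.84, 2.59 and 3.06 CPM in Sham Mef2c against 3.75, 4.37 and 7.37 CPM in Sham Gfp. It showed the smallest difference of the 10, -0.94 on the log2 scale (SE 0.22, edgeR adjusted p = 0.00655), a 1.91-fold lower level. The groups did not overlap, although the gap between them was narrow.

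Itgb2 encodes the beta chain CD18 and Itgam the alpha chain CD11b of the complement receptor integrin. Itgb2 had 4.46, 5.20 and 6.13 CPM in Sham Mef2c against 14.8, 29.2 and 46.9 CPM in Sham Gfp, and it fell by 2.55 on the log2 scale (SE 0.39, edgeR adjusted p = 0.000163). Itgam, uncertain for its overlap, had 12.3, 12.99 and 15.5 CPM in Sham Mef2c against 24.96, 31.0 and 42.9 CPM in Sham Gfp. Its log2 difference was -1.30 (SE 0.18, edgeR adjusted p = 0.000161), and neither chain's groups overlapped.

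Ptprc encodes CD45, the tyrosine phosphatase found on nearly all leukocytes. It had 4.28, 5.22 and 6.52 CPM in Sham Mef2c against 13.7, 39.3 and 62.2 CPM in Sham Gfp (lowest, median and highest), a log2 difference of -2.89 (SE 0.46, edgeR adjusted p = 0.000175). The groups did not overlap, and the lowest Sham Gfp level was in library 3. Gpr84, a receptor for medium-chain fatty acids that is induced in activated microglia and macrophages, had 0.628, 0.848 and 0.901 CPM in Sham Mef2c against 2.18, 2.95 and 4.602 CPM in Sham Gfp. Its log2 difference was -1.90 (SE 0.25), given without a test since these Sham Gfp libraries chose it.

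**Figure D2:**
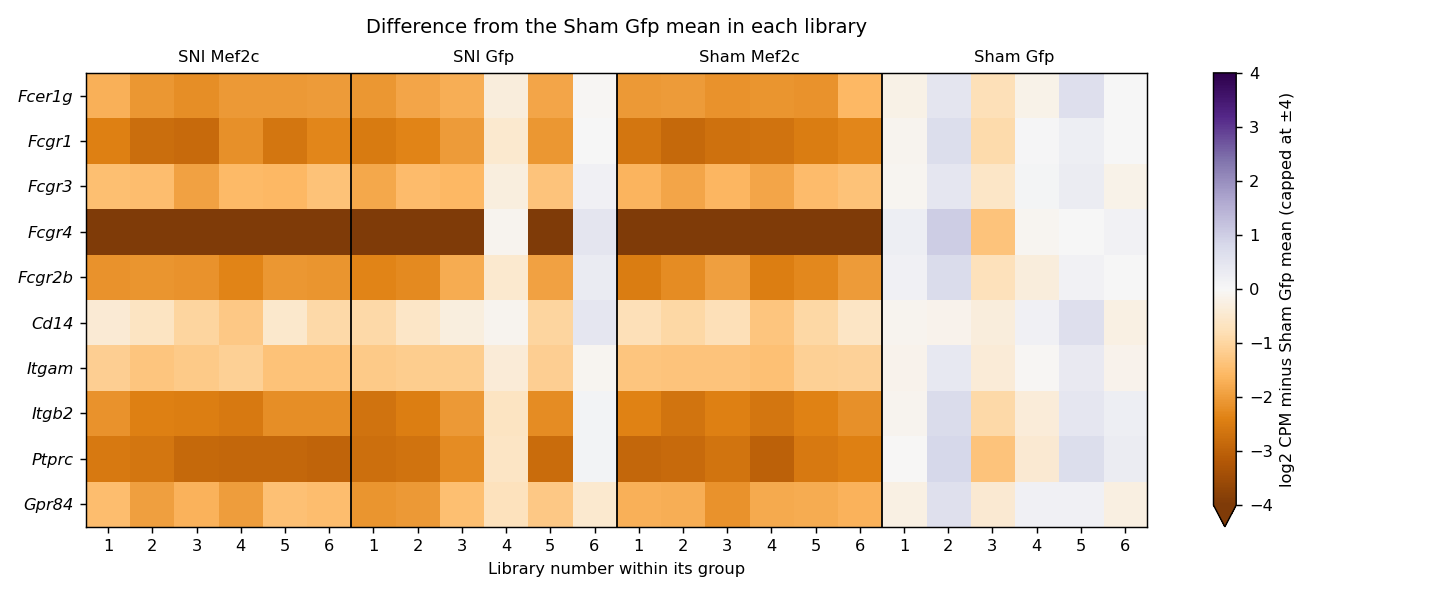
Log2 CPM of each gene in each of the 24 libraries minus the Sham Gfp mean, in columns by group and rows by gene, with colours capped at 4 in either direction. SNI Gfp libraries 4 and 6 lie above the other 4 of their group in every row, and above every Mef2c vector library. The Gpr84 row is a description, since that gene was picked with the SNI Gfp and Sham Gfp libraries.

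The second comparison set SNI Gfp against Sham Gfp, that is nerve injury against the sham operation with the Egfp vector. None of the 9 genes other than Gpr84 passed an adjusted p of 0.05 in edgeR, where 0% of genes tested were called. At an unadjusted p under 0.05 the count was 7 of 9, against 12.3% of genes tested. DESeq2 called 6 of 9, against 2.33% of genes tested, and limma-voom with quality weights called 8, against 11.7%. The deposited FPKM, tested by limma-trend after adding 1 and taking the log2, gave 7, against 3.08%. Without SNI Gfp library 6 edgeR called 7 of 9 (all but Cd14 and Fcgr4), against 5.83% of genes tested, and without SNI Gfp library 4 it called 0. Without Sham Gfp library 3 it called 6, against 3.68%. The 9 log2 differences lay between -1.48 for Ptprc and -0.36 for Cd14, with a median of -1.14. Leaving out SNI Gfp library 6 put Cd14 at -0.58, and leaving out Sham Gfp library 5 put it at -0.20.

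Ptprc had 5.05, 6.45 and 38.0 CPM as its lowest, median and highest level in SNI Gfp against 13.7, 39.3 and 62.2 CPM in Sham Gfp. The highest SNI Gfp library lay inside the Sham Gfp range and the median lay below it, and the log2 difference was -1.48 (SE 0.43, edgeR adjusted p = 0.107). Fcgr1 had 3.13, 4.33 and 18.3 CPM in SNI Gfp against 9.76, 18.5 and 28.9 CPM in Sham Gfp, with a log2 difference of -1.29 (SE 0.35, edgeR adjusted p = 0.0950). The same 2 libraries held the high values in both genes. Itgam had the smallest SE of the 9, at -0.81 on the log2 scale (SE 0.17, edgeR adjusted p = 0.0929). Fcgr4 had 0.153, 0.359 and 12.7 CPM in SNI Gfp, with 8.41 and 12.7 CPM in libraries 4 and 6 and at most 0.443 CPM in the other 4. Its log2 difference was -1.43 (SE 0.73, edgeR adjusted p = 0.452), and it was -2.36 without SNI Gfp library 6.

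Gpr84 is described here without a test, since this comparison picked it. It had 0.641, 1.13 and 2.10 CPM in SNI Gfp against 2.18, 2.95 and 4.602 CPM in Sham Gfp, a log2 difference of -1.29 (SE 0.24). Its groups did not overlap and the gap between them was narrow, which is the pattern it was picked for. In 0 of the other 9 genes did the groups fail to overlap, where 0.143% of genes tested had SNI Gfp wholly below Sham Gfp.

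The third comparison set SNI Mef2c against SNI Gfp, both injured. It shares the SNI Gfp libraries with the second, as the first and second share Sham Gfp. Gpr84, picked with those libraries, is not among the counts here either. None of the other 9 genes passed in edgeR, where 0% of genes tested were called lower and 0.00421% were called in either direction, the 1 gene being Mef2c. At an unadjusted p under 0.05 the count was 9 of 9, against 14.3% of genes tested. DESeq2 called 3 (Fcgr1, Fcgr4 and Ptprc), against 1.85% of genes tested, while limma-voom and limma-trend called none of the 9. Leaving out SNI Gfp library 2 edgeR called Fcgr1 and Fcgr4, against 1.58% of genes tested. It called Fcgr4 when leaving out SNI Gfp library 1, against 0.638%, or library 5, against 0.675%. In 0 of 9 genes did the groups fail to overlap, against 0.227% of genes tested in the lower direction.

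The 9 log2 differences lay between -5.08 and -0.46, with a median of -1.08. Fcgr4 stood out in size, with 0, 0.0828 and 0.211 CPM in SNI Mef2c (lowest, median and highest, 20 counts in the group) against 0.153, 0.359 and 12.7 CPM in SNI Gfp (794 counts). The count of 0 in SNI Mef2c library 4 allows up to 0.0927 CPM, from a floor of 3 counts, and covers counting error only. The Fcgr4 log2 difference was -5.08 (SE 1.06, edgeR adjusted p = 0.0891), with the high levels in SNI Gfp libraries 4 and 6. Fcer1g had 4.72, 5.16 and 6.67 CPM in SNI Mef2c against 5.13, 6.20 and 21.2 CPM in SNI Gfp, and SNI Gfp libraries 1, 2, 3 and 5 lay inside the SNI Mef2c range. Without SNI Gfp library 6 the median of the 9 log2 differences was -0.60, and without library 4 it was -0.91.

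**Figure D3:**
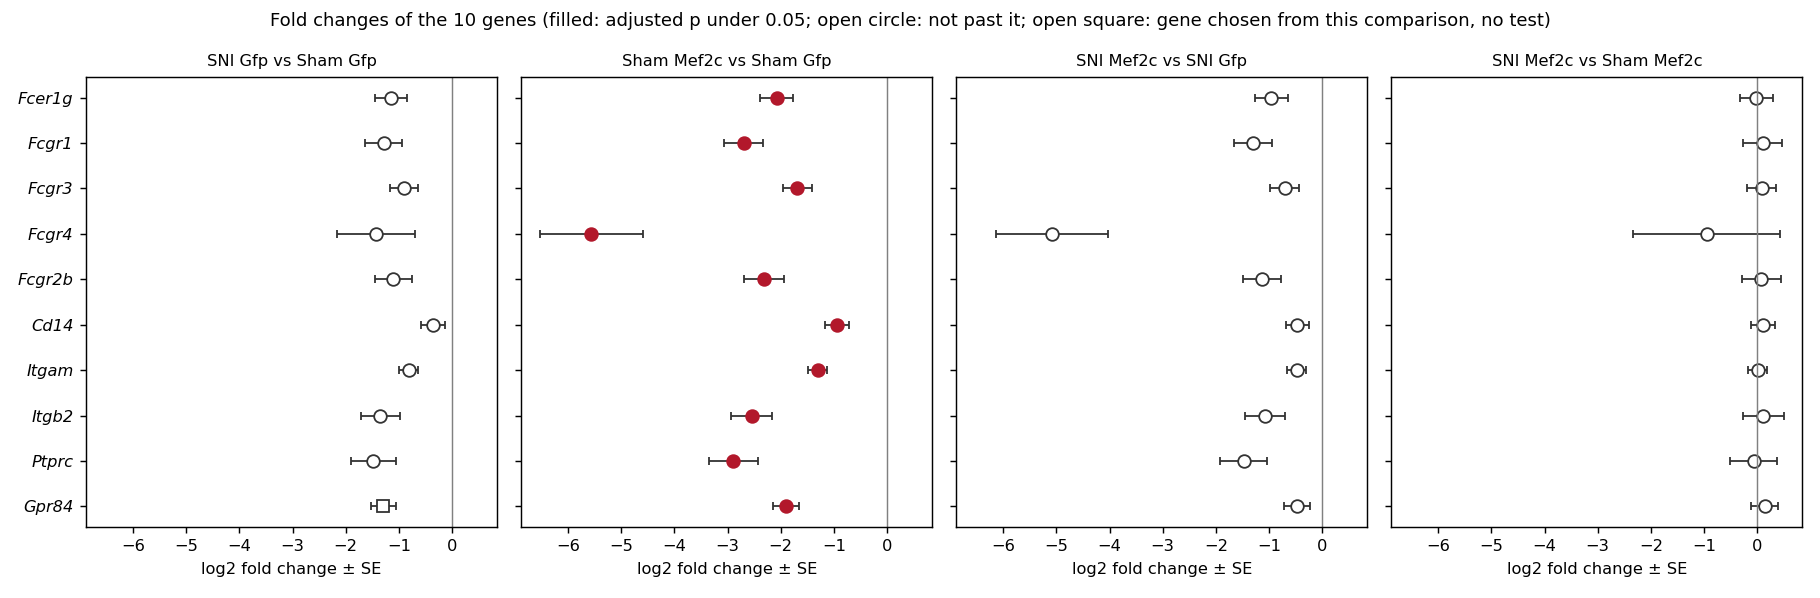
Log2 difference of each gene with its SE as a bar in 4 comparisons, the group named first minus the group named second. Sham Mef2c against Sham Gfp lay between -5.56 and -0.94, and SNI Mef2c against Sham Mef2c lay near 0 except for Fcgr4. The filled mark of Gpr84 in Sham Mef2c against Sham Gfp is a description, since that gene was picked with those Sham Gfp libraries.

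With the Mef2c vector, SNI Mef2c and Sham Mef2c were close. The 10 log2 differences lay between -0.95 for Fcgr4 (SE 1.38) and 0.14 for Gpr84 (SE 0.26), with a median of 0.08. None of the 10 genes passed in edgeR, none had an unadjusted p under 0.05, and 0% of genes tested were called. DESeq2, limma-voom and limma-trend called none of the 10. For Itgb2 the levels were 4.73, 5.63 and 6.37 CPM in SNI Mef2c against 4.46, 5.20 and 6.13 CPM in Sham Mef2c (lowest, median and highest), and the groups overlapped. Its log2 difference was 0.12 (SE 0.38).

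The interaction asks whether the effect of the vector differed between injured and sham mice. It contains the comparison that picked Gpr84, whose value of 1.43 (SE 0.35) is given as a description. The log2 values of the other 9 lay between 0.47 for Cd14 and 1.47 for Itgb2, with a median of 1.12. None of the 9 passed in edgeR, with 0% of genes tested called, and 7 of 9 had an unadjusted p under 0.05, against 14.9% of genes tested. Limma-voom with quality weights called 7 of 9, against 17.2% of genes tested, and DESeq2 called none. EdgeR without SNI Gfp library 6 called 5 (Fcgr1, Fcgr2b, Fcgr3, Itgam and Itgb2), against 1.13%.

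Levels per kilobase depend on which length the counts refer to. Per kilobase of merged exons, Fcer1g in Sham Gfp stood at 26.2 CPM, Fcgr3 at 12.5, Itgb2 at 9.83, Cd14 at 2.81 and Gpr84 at 1.79. Per kilobase of gene span, the length in the deposited FPKM, Fcer1g stood at 4.78 CPM, Cd14 at 2.81, Fcgr3 at 1.58, Gpr84 at 1.30 and Itgb2 at 0.846. Fcer1g was the highest of the 10 in Sham Gfp on both scales, whereas Cd14 and Gpr84 lay above Itgb2 per kilobase of span and below it per kilobase of exons. The labels do not say whether reads in introns were counted, so no further order is given.

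**Figure D4:**
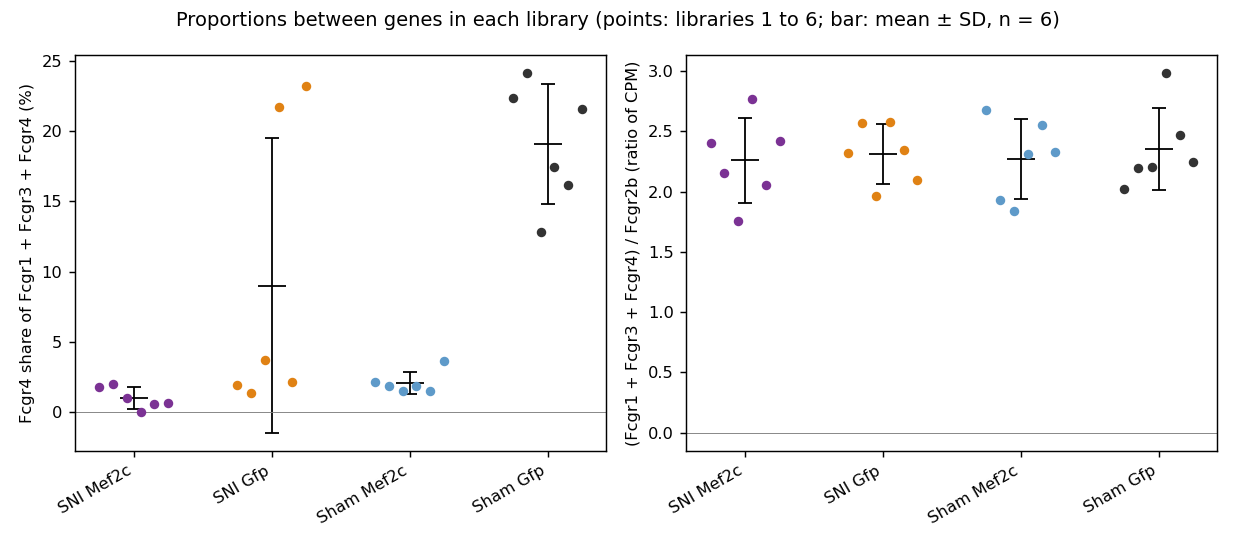
Fcgr4 as a percent of the summed counts of the 3 activating receptors and the summed activating receptors over Fcgr2b, by library in the 4 groups. The Fcgr4 share separated Sham Gfp from both Mef2c groups, whereas the activating over inhibitory ratio lay at similar values in all groups.

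The balance of activating to inhibitory receptors was described by ratios of counts within a library. Counts of Fcgr1, Fcgr3 and Fcgr4 together over those of Fcgr2b averaged 2.26 ± 0.351 in SNI Mef2c, 2.31 ± 0.248 in SNI Gfp, 2.27 ± 0.332 in Sham Mef2c and 2.35 ± 0.341 in Sham Gfp (SD, n = 6 each). The Fcgr4 share of the activating counts averaged 1.03% in SNI Mef2c, 9.02% in SNI Gfp, 2.10% in Sham Mef2c and 19.1% in Sham Gfp. In SNI Gfp it was 21.7% and 23.2% in libraries 4 and 6 and between 1.40% and 3.70% in the other 4, against 12.8% to 24.1% in Sham Gfp. These ratios are descriptions with no test.

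P2ry12, a purinergic receptor that marks microglia, is uncertain because its span overlaps Med12l, which had 76708 counts over all libraries against 23265 for P2ry12. The value listed for P2ry12 averaged 30.4 ± 2.09 CPM in SNI Mef2c, 30.8 ± 1.46 CPM in SNI Gfp, 29.5 ± 1.36 CPM in Sham Mef2c and 31.8 ± 2.35 CPM in Sham Gfp (SD, n = 6 each), and it did not pass in Sham Mef2c against Sham Gfp (edgeR adjusted p = 0.226). Tmem119, a microglial marker that no gene with more counts overlaps, averaged 16.1 ± 1.84 CPM in Sham Mef2c against 38.6 ± 6.36 CPM in Sham Gfp (SD, n = 6 each) and fell by 1.26 on the log2 scale (edgeR adjusted p = 0.000161). Of the 12 microglia markers 9 were called lower at an adjusted p under 0.05 in edgeR, against 7.93% of genes tested. Their sum ran between 448 and 969 CPM in Sham Mef2c against 720 and 1023 CPM in Sham Gfp. The 969 CPM was in library 6, and the other 5 libraries labelled Sham Mef2c reached at most 473 CPM.

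Genes with the most similar profile over the 24 libraries were read as the root-mean-square difference of centred log2 CPM, among 12454 genes with a mean of at least 1 CPM. Itgam lay nearest Csf1r (0.10), the receptor for macrophage growth factor, and Tmem119 (0.11). Itgb2 lay nearest C1qc (0.11), a chain of complement C1q, and Fcgr1 nearest C1qb and C1qa (both 0.16). Fcer1g lay nearest Hcls1 and Pld4 (both 0.12), Fcgr3 nearest Tyrobp (0.12), another ITAM adaptor, and Ptprc nearest the adaptor Pik3ap1 (0.16). Fcgr2b lay nearest the phosphatase Ptpn6 (0.17) and Cd14 nearest Olfml3 (0.22). The kinase gene Btk (0.25) was among the 3 genes nearest to Gpr84. Fcgr4 lay nearest Ifi47 (0.50), an interferon-inducible GTPase. Next to it came H2-Q6 (0.56), which belongs to a family of similar genes and is uncertain.

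Other genes of these pathways were counted in the libraries labelled Sham Mef2c against Sham Gfp. A gene counted as lower or higher had an adjusted p under 0.05 in edgeR, here and in the marker lists. All these lists were chosen with earlier results of these data known. Of the 23738 genes tested, 7.93% were called lower, and the median log2 difference over all genes tested was 0.02. Of 16 kinases and adaptors of ITAM receptors 15 were lower, with a median log2 difference of -1.71. Among them Pik3ap1 averaged 5.24 ± 0.585 CPM in Sham Mef2c against 37.9 ± 15.04 CPM in Sham Gfp (SD, n = 6 each), and the adaptor Tyrobp fell by 1.66 on the log2 scale (edgeR adjusted p = 0.000163). Of 7 inhibitory phosphatases 4 were lower, with a median of -0.33, and the phosphatase Ptpn6 fell by 2.51 (edgeR adjusted p = 0.000175).

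Of 12 partners of Cd14 10 were lower, with a median of -1.15, where 7.93% of genes tested were called lower. The endotoxin receptor Tlr4 fell by 1.30 on the log2 scale (edgeR adjusted p = 0.000167). Of 12 tested integrins, ligands and activators 9 were lower, and the integrin alpha chain Itgax averaged 0.793 ± 0.380 CPM in Sham Mef2c against 17.9 ± 9.39 CPM in Sham Gfp (SD, n = 6 each). Of 17 partners of CD45 and leukocyte surface genes 15 were lower, with a median of -1.48. Of 8 tested other Fc receptors 4 were lower and 1 was higher, with a median of -0.47. The gene that was higher was Fcrls, an Fc receptor-like gene of microglia, with 3.98 ± 0.395 CPM in Sham Mef2c against 1.68 ± 0.432 CPM in Sham Gfp (SD, n = 6 each, log2 difference 1.25, edgeR adjusted p = 0.00238). None of the pathway genes passed in the other comparisons.

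**Figure D5:**
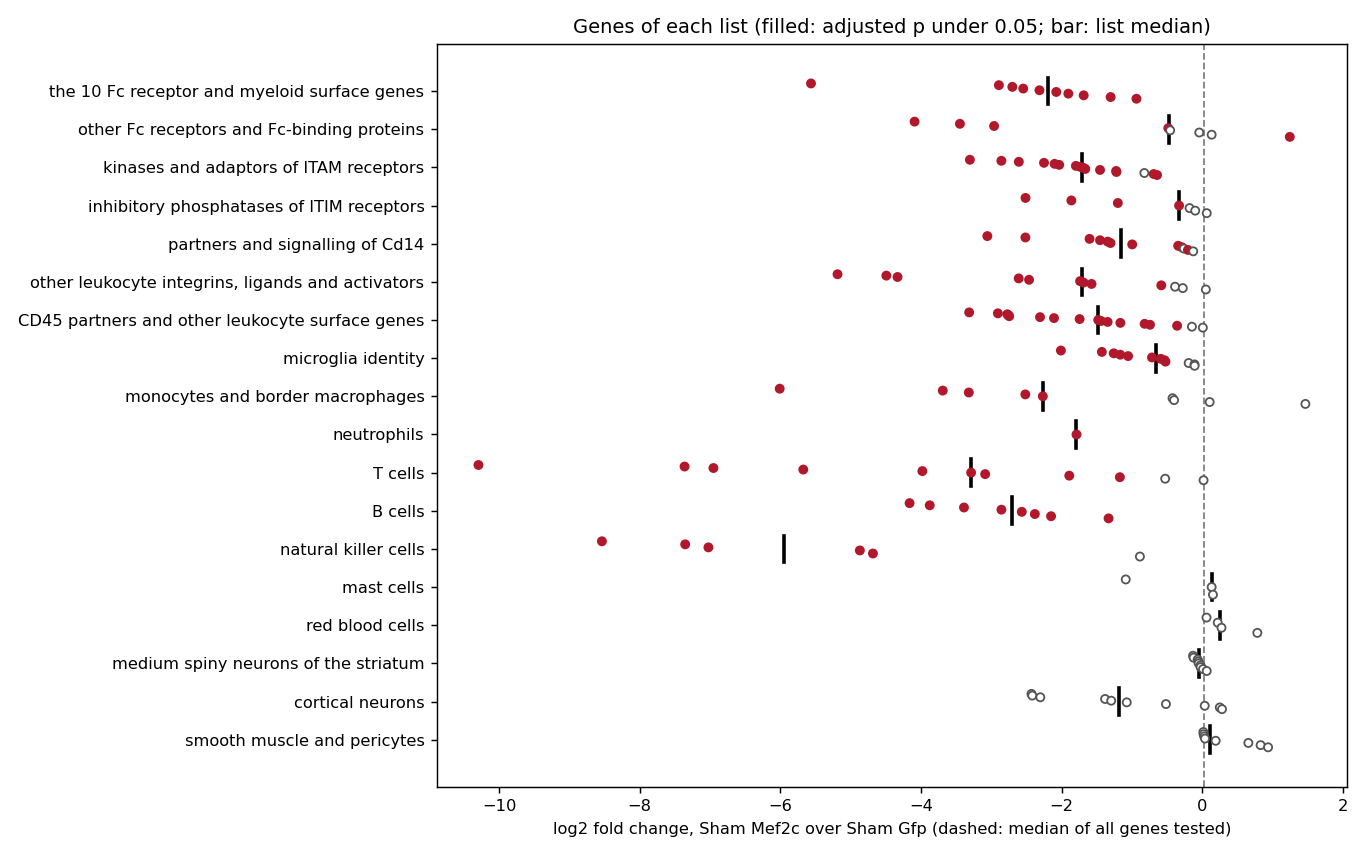
Fitted log2 difference of each tested gene in the pathway and cell type lists, Sham Mef2c minus Sham Gfp, 1 point per gene and 1 row per list. Most leukocyte lists lay below 0, and the medium spiny neuron, red blood cell and smooth muscle lists lay near 0.

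Markers of blood leukocytes differed in the same comparison, where 7.93% of genes tested were called lower. The median log2 difference over all genes tested was 0.02. Of 8 B cell markers 8 were lower, with a median of -2.71, and their sum ran between 8.45 and 11.8 CPM in Sham Mef2c against 19.2 and 111 CPM in Sham Gfp. Ighm, averaging 46.8 CPM, was the largest part of the Sham Gfp sum. Of 11 T cell markers 9 were lower, with a median of -3.29, also with Cd8a at its bound. Their sum was 42.7 to 62.7 CPM in Sham Mef2c against 50.5 to 120 CPM in Sham Gfp. The largest parts of that sum in Sham Gfp were Cd4, averaging 26.3 CPM, and Cd247, averaging 26.5 CPM. Cd247 is uncertain because its span overlaps a gene with more counts. Cd3e averaged 0.0154 CPM in Sham Mef2c against 2.46 CPM in Sham Gfp, and Cd3g 0.0224 against 4.17 CPM. Cd8a, a T cell marker, had 0 counts in Sham Mef2c against 956 in Sham Gfp, at least 308-fold lower from a floor of 3 counts over the group.

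Of 6 tested natural killer cell markers 5 were lower, against 7.93% of genes tested called lower. Their sum ran between 0.151 and 1.91 CPM in Sham Mef2c against 3.11 and 21.99 CPM in Sham Gfp. Gzmb had 0 counts in Sham Mef2c against 284 in Sham Gfp, at least 91.5-fold lower, and the median was -5.95 as fitted and -5.69 with Gzmb at that bound. Of 9 tested monocyte and border macrophage markers 5 were lower, with a sum of 17.46 to 61.8 CPM against 27.9 to 132 CPM. Of 11 neutrophil markers only Csf3r could be tested, and it was lower. The neutrophil sum ran between 8.95 and 16.03 CPM in Sham Mef2c against 23.2 and 53.6 CPM in Sham Gfp. Most of that sum was Csf3r, averaging 10.9 ± 2.03 CPM in Sham Mef2c against 37.7 ± 11.3 CPM in Sham Gfp (SD, n = 6 each). The sum therefore mostly repeats Csf3r and does not show that the other neutrophil markers were lower. Elane was at 0 in Sham Gfp.

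Mast cell markers summed to between 43.4 and 53.8 CPM in Sham Mef2c against 36.8 and 51.3 CPM in Sham Gfp, with Tpsb2 and Fcer1a at 0 in Sham Mef2c and Mcpt4 at 0 in Sham Gfp. None of the 3 tested mast cell, 4 red blood cell, 9 medium spiny neuron, 10 cortical neuron and 8 smooth muscle markers passed. The cortical neuron list had a median of -1.18 on the log2 scale. The part of other cell types, and of cortical tissue in the punch, in the differences of the 10 genes was not tested. With the cortical marker mean as a covariate, 9 of the 9 genes other than Gpr84 were called lower. In that fit 1765 of the 23738 genes tested were called lower in Sham Mef2c against Sham Gfp. It is given as a description and does not test the part of cortical tissue.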

How the data were processed

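Bulk mRNA of 24 libraries was analysed. The authors deposited raw counts per gene, which per the submitters' processing notes came from featureCounts on mm10, with aligner, annotation and versions not given in the sources used here. FPKM deposited by the authors equalled count over library total and gene span, introns included, for 100% of 793675 values above 0 (relative tolerance 1e-06). Of 55401 IDs, 55141 matched a GENCODE M21 symbol without the ID version. Total counts lay between 25477019 and 36570108. No pair of libraries within a group was a copy (60 pairs, smallest chi-square per degree of freedom 3.22). Pairs from different groups were not checked for copies.

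Counts were tested with edgeR 4.0.16 in R 4.3.3: filterByExpr, TMM, robust quasi-likelihood fit with 1 coefficient per group over all libraries (20 residual degrees of freedom), 23738 genes tested, two-sided, Benjamini-Hochberg threshold 0.05. The standard error of a log2 difference was taken from its F statistic. Log2 CPM has a prior count of 2. Alternatives were RLE scaling, library size alone, other low-count filters, DESeq2 1.42.0, limma 3.58.1 (voom with quality weights, and trend on FPKM with 1 or 0.1 added), a replicate block, the compared groups alone, a cortical marker covariate and leaving out each library. The fit was tested on simulated data.

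The 10 genes and the lists were chosen with earlier results of these data known. The text names the 10 genes, Mef2c, P2ry12, Tmem119, up to 4 genes per list by smallest adjusted p, and up to 3 nearest profiles per gene. The genes given because a group was at 0 (Cd8a, Gzmb, Elane, Tpsb2, Fcer1a and Mcpt4) were named after their values were seen. Some genes that this rule names are not reported here.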

Additional observations from a re-analysis of the deposited data

Results flagged for a closer look

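In each of 40 groups of 6 libraries (10 genes in 4 groups), the highest or lowest library was compared with its nearest neighbour by the ratio of the gap to the range, against Dixon's critical value for 6. Of the 40 groups 5 passed, and chance gives about 1 in 20. Fcer1g stood at 6.67 CPM in SNI Mef2c library 1, the highest of 6, and at 7.24 CPM in Sham Mef2c library 6, the highest of 6. Fcgr4 stood at 0.432 CPM in Sham Mef2c library 6, the highest of 6. Fcgr2b stood at 4.02 CPM in SNI Mef2c library 4, and Gpr84 at 0.628 CPM in Sham Mef2c library 3, each the lowest of 6. Libraries 4 and 6 of SNI Gfp were not singled out by this ratio, since 2 libraries lay apart together.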

How the results depend on the processing

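In Sham Mef2c against Sham Gfp, 9 of the 9 genes other than Gpr84 were called lower under each alternative run and without each library. The other counts moved. For SNI Gfp against Sham Gfp, the 0 of 9 became 6 with DESeq2, 8 with limma-voom, 7 and 8 with limma-trend on FPKM plus 1 and plus 0.1, and 0 to 7 when leaving out a library. For SNI Mef2c against SNI Gfp, the 0 became 3 with DESeq2 and 0 to 2 when leaving out a library. For the interaction, the 0 became 7 of the 9 with limma-voom and 0 to 5 when leaving out a library. Over all genes tested, SNI Gfp against Sham Gfp had 0 calls, 1 with RLE scaling, library size alone or the 1 CPM filter, 553 with DESeq2, 2777 with limma-voom, 731 and 770 with limma-trend, and 0 to 1392 when leaving out a library. Sham Mef2c against Sham Gfp had 2233, 4412 with limma-voom and 1731 to 3602 when leaving out a library. SNI Mef2c against SNI Gfp had 1, 438 with DESeq2, 13 with limma-voom and 1 to 379 when leaving out a library. SNI Mef2c against Sham Mef2c had 0, 13 with DESeq2, 1 with limma-trend on FPKM plus 1 and 0 to 1 when leaving out a library. The interaction had 0, 1 with DESeq2, 4074 with limma-voom and 0 to 269 when leaving out a library. The cause was not tested.

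Signs turned in SNI Mef2c against Sham Mef2c, where values lay near 0. With the cortical covariate Fcgr1 was -0.022, Fcgr3 -0.026, Cd14 -0.027 and Itgam -0.053. Itgam was -0.022 with library size alone, -0.016 with limma-voom, and -0.0043 and -0.015 with limma-trend. Leaving out a library gave -0.090 to 0.074 for Fcer1g and -0.030 to 0.045 for Itgam.

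Replicate numbers did not pair the libraries: of 36 same-numbered pairs 9 had a correlation over 0.1 (lowest -0.43, highest 0.279), and 2 of 24 libraries correlated best with their own number. With the replicate block and Gpr84 left out, 9 of 9 genes were called in Sham Mef2c against Sham Gfp. In the other comparisons 0 were called. Of all genes, 1 was called in SNI Gfp against Sham Gfp and 1935 in Sham Mef2c against Sham Gfp. SNI Mef2c against SNI Gfp had 1, and the remaining comparisons had 0. With this block Fcer1g in SNI Mef2c against Sham Mef2c was 0.0074. Depth limits Fcgr4 with the Mef2c vector, which had 0 to 7 counts per library in SNI Mef2c and 5 to 12 in Sham Mef2c.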
